A study of Homo sapiens with 5 samples.

Results

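The pool described here joined the ERα peak lists of 2 prostate cancer lines, VCaP ERα + E2 and NCI-H660 + E2, which the study put together when it asked where ERα binds in the prostate cancer genome and which long non-coding RNAs (lncRNAs) lie beside that binding. Every autosomal peak of both lists was a member, which gave 2622 of the 6565 peaks in the 4 lists of the series. VCaP ERα + E2 gave 858 members and NCI-H660 + E2 gave 1764. ERα chromatin immunoprecipitation with sequencing (ChIP–seq) had been run on both lines of the pool and on parental VCaP cells with E2 (VCaP + E2) and without it (VCaP), with 1 library for each, beside an input library that was not analysed here. VCaP is an androgen receptor-positive prostate cancer line, and VCaP ERα cells are VCaP cells made to overexpress ERα stably from a plasmid. NCI-H660 cells come from a neuroendocrine tumour of the prostate. They, like the VCaP + E2 cells, received 10 nM 17β-oestradiol (E2) for 14 h after 48 h without hormone. The dose and time of E2 for VCaP ERα cells, and any time without hormone, were not given in the labels. The study's methods name several E2 times for ERα ChIP in these cells, without saying which was sequenced. The NCI-H660 growth medium itself contained E2, hydrocortisone and insulin, which are not named for the VCaP medium, and all lines were kept with serum. Passages ran from 10 to 12 for VCaP ERα, from 4 to 5 for NCI-H660 and from 3 to 4 for VCaP. Cell line, ERα dose, medium and passage therefore all differed between the lists of the pool, and E2 exposure may have differed too. Their parts in a difference cannot be told apart. A list of positions holds no expression, so the identity of the lines could not be checked against marker genes. In the region of ESR1, the gene of ERα, the library labelled VCaP ERα + E2 had no peak, whereas each of the other lists had some. The groups are used as labelled, and every difference between the lists given here rests on those labels.

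ERα is a nuclear receptor that E2 activates. The bound receptor dimerises and contacts the oestrogen response element, a palindrome of the half-site AGGTCA with a spacer of a few bases, or reaches DNA through other factors, and it acts mostly from enhancers far from promoters. In breast tissue it drives proliferation through genes such as GREB1 and TFF1, whereas in the prostate the androgen receptor has the leading role and ERα is best known from stroma and from a subset of tumours.

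The sequences that carry the pool's overlap with gene starts are shown first. Among 43 candidate lncRNA genes with a RefSeq promoter (250 bases before to 50 after the start), 9 had a pool peak inside the window as placed from the hg18 span. NCI-H660 + E2 had a peak in all 9 windows, and VCaP ERα + E2 had one in the window of PRECSIT. PRECSIT, a p53-regulated lncRNA on chromosome 13, was the only candidate whose promoter window held peaks of both lists, and MZF1-AS1, antisense to the zinc finger gene MZF1, was the locus with the most peaks. GABPB1-AS1 completes the 3 windows with the whole half-site AGGTCA, and DNAJC9-AS1 is an example with the peak across the start and the core alone. Sequences are RefSeq GRCh38.p14, written 5′ to 3′ on the gene's strand, with each core half-site GGTCA or its reverse complement TGACC in capitals.

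PRECSIT promoter, chr13:110870259-110870558 (- strand): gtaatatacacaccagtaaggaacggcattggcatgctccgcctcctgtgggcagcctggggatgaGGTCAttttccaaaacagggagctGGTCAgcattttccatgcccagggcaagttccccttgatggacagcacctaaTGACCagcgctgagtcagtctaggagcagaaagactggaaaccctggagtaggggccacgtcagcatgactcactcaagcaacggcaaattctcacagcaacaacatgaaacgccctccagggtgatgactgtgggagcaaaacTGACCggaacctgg

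MZF1-AS1 promoter, chr19:58558936-58559235 (+ strand): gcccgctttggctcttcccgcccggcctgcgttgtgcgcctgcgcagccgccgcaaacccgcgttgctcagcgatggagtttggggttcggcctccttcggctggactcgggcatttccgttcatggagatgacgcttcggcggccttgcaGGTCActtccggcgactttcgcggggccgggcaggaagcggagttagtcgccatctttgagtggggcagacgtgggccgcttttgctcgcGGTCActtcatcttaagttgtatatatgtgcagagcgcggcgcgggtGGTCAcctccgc

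GABPB1-AS1 promoter, chr15:50353924-50354223 (+ strand): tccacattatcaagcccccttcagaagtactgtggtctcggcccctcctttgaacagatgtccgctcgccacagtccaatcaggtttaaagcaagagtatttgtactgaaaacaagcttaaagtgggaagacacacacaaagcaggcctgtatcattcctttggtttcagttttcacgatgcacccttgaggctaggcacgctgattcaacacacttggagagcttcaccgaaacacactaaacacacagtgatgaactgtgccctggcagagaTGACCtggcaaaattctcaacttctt

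DNAJC9-AS1 promoter, chr10:73252491-73252790 (+ strand): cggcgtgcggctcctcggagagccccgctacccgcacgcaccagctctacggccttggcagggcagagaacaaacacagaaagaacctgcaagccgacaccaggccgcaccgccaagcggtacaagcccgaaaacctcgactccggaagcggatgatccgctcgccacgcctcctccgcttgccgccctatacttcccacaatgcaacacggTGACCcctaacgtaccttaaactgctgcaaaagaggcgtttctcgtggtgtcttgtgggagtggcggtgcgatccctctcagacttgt

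At PRECSIT the NCI-H660 + E2 peak ran from -253 to -133 bp relative to the start and the VCaP ERα + E2 peak from -135 to -29 bp, so the lists met end to end and had 3 bp in common. The 300-base window held 4 core half-sites, and 1 of them was part of an AGGTCA or TGACCT. The last of the 4 lay after the start, under neither peak. MZF1-AS1 had an NCI-H660 + E2 peak from 15 to 183 bp, which ran past the window, and 3 core half-sites in the window. Only the last of these cores lay under the peak, and the whole AGGTCA lay before the start. At GABPB1-AS1, antisense to a GA-binding protein subunit gene, the peak ran from -117 to 51 bp, and at DNAJC9-AS1 from -90 to 49 bp. AGGTCA or TGACCT stood in 3 of the 9 windows, in 7 of the 43 candidate promoters (16.3%) and in 14.2% of all 27305 RefSeq promoters of this length. The shorter core GGTCA or TGACC, which every AGGTCA or TGACCT contains, stood in 6 of the 9, in 18 of the 43 (41.9%) and in 38.1% of all promoters. LINC01426, among the 9 and the 6, had a listed span of 2543 bp but a RefSeq gene of 39062 bp. Its peak and its bases may therefore belong to different starts. The full palindrome, both cores facing each other across 3 bases, was in none of the 43 and in 18 of all promoters (0.0659%). These letters are a description of the windows and not of binding.

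The first question was what each list brought to the pool. By number of peaks VCaP ERα + E2 supplied 32.7% of the pool (exact 95% interval 30.9 to 34.6) and NCI-H660 + E2 67.3% (65.4 to 69.1). These intervals, like all others given here, are Clopper-Pearson intervals that cover counting error only, and they are too narrow for peaks that lie in clusters. Peak widths hardly set the lists apart, with median values of 167 bp (VCaP ERα + E2) against 164 bp (NCI-H660 + E2) and a narrowest peak of 99 bp in each. Covered sequence was thus divided much as the peak numbers were, with 0.179 Mb (33.3%) from VCaP ERα + E2 and 0.36 Mb (66.7%) from NCI-H660 + E2. The weight of VCaP ERα + E2 fell once neighbouring peaks were counted as 1. When peaks of a list no more than 100 kb apart were joined into runs, VCaP ERα + E2 had 255 runs and NCI-H660 + E2 had 1221, so that VCaP ERα + E2 held 17.3% (15.4 to 19.3) of the 1476 runs. With 1 library a line there was no replicate error for any of these values and no test between lists was possible.

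The X and Y chromosomes are outside the pool as defined here, and they held much more of the VCaP ERα + E2 list than of the NCI-H660 + E2 list. They carried 975 of the 1833 VCaP ERα + E2 peaks (53.2%, 50.9 to 55.5), whereas NCI-H660 + E2 had 222 of its 1986 there (11.2%, 9.83 to 12.6). The trait was not particular to VCaP ERα + E2. VCaP + E2 had 583 of its 2505 peaks there (23.3%) and VCaP without E2 152 of its 241 (63.1%). With both chromosomes included the list of VCaP ERα + E2 would make up 48.0% of a pool of 3819 peaks.

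VCaP ERα + E2 peaks stood mostly on chromosomes 13 and 22, whereas NCI-H660 + E2 peaks lay on all 22 autosomes. Chromosome 13 held 400 VCaP ERα + E2 peaks (46.6% of the list), which is 13.6 times an even share by the length that the peaks span, and 71 NCI-H660 + E2 peaks (4.02%, 1.17 times). Chromosome 22 held 176 VCaP ERα + E2 peaks (20.5%, 17.9 to 23.4, 16.6 times an even share) and 55 NCI-H660 + E2 peaks (3.12%, 2.52 times). These chromosomes together carried 67.1% of VCaP ERα + E2 but 7.14% of NCI-H660 + E2 peaks. Of all 471 pooled peaks on chromosome 13, 84.9% (81.4 to 88.0) came from VCaP ERα + E2, and so did 76.2% (70.2 to 81.5) of the 231 on chromosome 22. On the other 20 autosomes VCaP ERα + E2 gave 282 of 1920 pooled peaks (14.7%, 13.1 to 16.4). When runs were counted instead of peaks, chromosome 13 fell to 0.799 times an even share of VCaP ERα + E2 while chromosome 22 stood at 19.6 times, since the 400 peaks on 13 formed 7 runs and the 176 on 22 formed 62. The parental lists each had part of this pattern. VCaP + E2 had 545 of its 1922 autosomal peaks on chromosome 13 and 57 on 22. VCaP without E2 had 30 of its 89 on chromosome 22 and 0 on 13.

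VCaP ERα + E2 had no peak at all on chromosomes 2, 3, 4, 7, 10, 12 and 20. A count of 0 in a list of 858 allows a share of up to 0.35% on each. NCI-H660 + E2 had between 23 and 83 peaks on these 7 chromosomes, 360 in all (20.4% of its list), so every pooled peak there was an NCI-H660 + E2 peak. VCaP + E2 had between 32 and 95 peaks on each of them. VCaP without E2, with 89 autosomal peaks, had 1 on chromosome 10 and 0 on 2, 3, 4, 7, 12 and 20. NCI-H660 + E2 was itself uneven. It had 220 peaks on chromosome 19 (12.5%, 5.39 times an even share), 188 on chromosome 1, 155 on 9, 152 on 14 and 147 on 21 (8.33%, 7.09 to 9.72, 6.19 times). Chromosome 19 is dense in genes, and against gene number in place of length its NCI-H660 + E2 excess was 2.62 times, while that of chromosome 21 was 5.59 times. The lowest NCI-H660 + E2 counts were 19 on chromosome 18 and 23 on chromosome 3 (0.182 times). VCaP ERα + E2 also exceeded an even share on chromosome 21 (49 peaks, 4.24 times) and chromosome 19 (45 peaks, 2.27 times), where NCI-H660 + E2 had its highest shares relative to length.

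**Figure D1:**
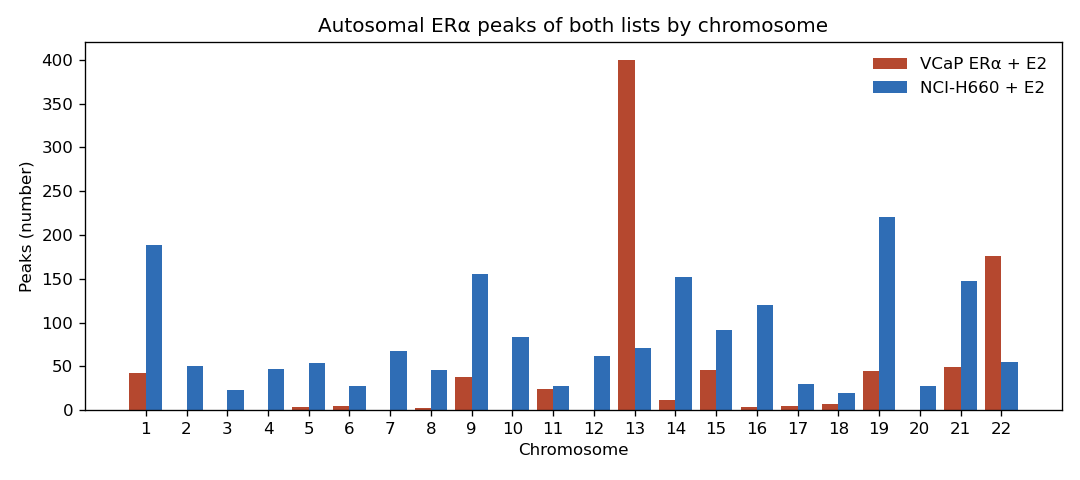
Autosomal peaks of VCaP ERα + E2 (red) and NCI-H660 + E2 (blue) by chromosome, as the number of peaks on an axis from 0. VCaP ERα + E2 reaches 400 on chromosome 13 and 176 on 22 and is at 0 on 7 autosomes, whereas NCI-H660 + E2 ranges from 19 on chromosome 18 to 220 on 19.

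Clustering differed in the same way. A dense cluster was taken as a run of at least 20 peaks. VCaP ERα + E2 had 4 such clusters with 443 peaks (51.6% of the list, 48.2 to 55.0), and NCI-H660 + E2 had 2 with 66 peaks (3.74%, 2.91 to 4.74). Peaks alone in their run were 179 (20.9%, 18.2 to 23.7) in VCaP ERα + E2 and 967 (54.8%, 52.5 to 57.2) in NCI-H660 + E2. VCaP + E2, the parental line, stood between them in dense clusters with 4 clusters and 541 peaks (28.1%, 26.1 to 30.2), and its single peaks (51.8%) were near those of NCI-H660 + E2. Without dense clusters the pool shrank to 2113 peaks, 415 of them (19.6%, 18.0 to 21.4) from VCaP ERα + E2. The NCI-H660 + E2 share rested on the gap allowed, because no NCI-H660 + E2 run reached 20 peaks with gaps of up to 50 kb, when VCaP ERα + E2 still had 48.3% of its peaks in dense clusters.

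**Figure D2:**
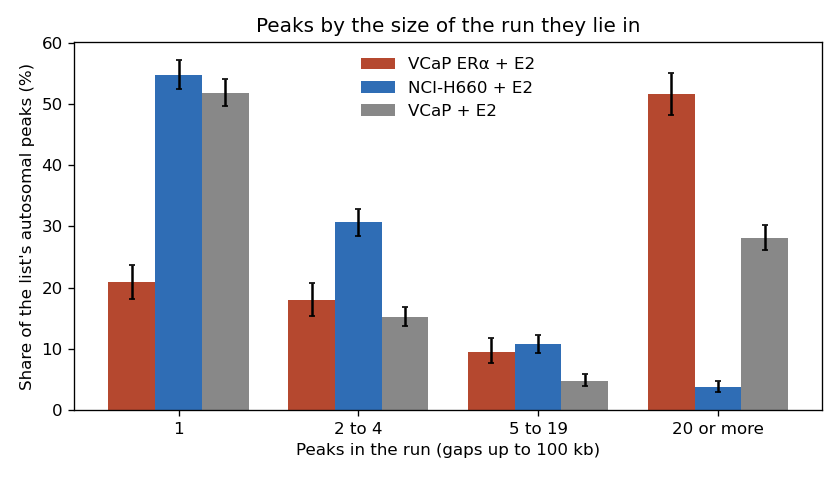
Share of each list's autosomal peaks (%) by the number of peaks in the run they belong to, for VCaP ERα + E2 (red), NCI-H660 + E2 (blue) and VCaP + E2 (grey), with exact 95% intervals as error bars. The class of 20 or more peaks holds 51.6% of VCaP ERα + E2 and 3.74% of NCI-H660 + E2, and the class of 1 peak holds 20.9% and 54.8%.

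The largest cluster of the pool was a VCaP ERα + E2 block at chr13:108405288-111139032 (hg18, as are all peak positions). It held 364 peaks in 2.73 Mb, 42.4% of the list, with a median gap of 4852 bp, and the peaks themselves covered 2.84% of its length. NCI-H660 + E2 had 10 peaks within its bounds and VCaP + E2 had 416, of which the VCaP ERα + E2 peaks overlapped few: 44 of the 364 were also in VCaP + E2 and 4 were also in NCI-H660 + E2. The block thus recurred in VCaP + E2 as a stretch of the chromosome, while most single peaks in it did not. VCaP without E2 had 0 peaks inside it. A second block at chr13:111552499-111786329 held 30 peaks of VCaP ERα + E2, 67 of VCaP + E2 but 2 of NCI-H660 + E2, with 9 of the 30 shared with VCaP + E2. At chr1:153018911-153263138 there were 24 VCaP ERα + E2 peaks, the widest of the dense blocks by median (270.5 bp), beside 28 of VCaP + E2 and 1 of NCI-H660 + E2, and 1 of the 24 was shared with VCaP + E2.

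The remaining dense block of VCaP ERα + E2, chr22:19754798-20070205, was different. Its 25 peaks had no NCI-H660 + E2 or VCaP + E2 peak among them, and 5 peaks of VCaP without E2 lay inside it without touching any of the 25. Below the limit of 20 peaks, chromosome 22 also gave runs of 17, 14 and 9 peaks between positions 17117471 and 19202860, with no NCI-H660 + E2 peak in any of them and at most 1 VCaP + E2 peak in each. A run of 7 peaks at chr22:29607902-29668261 overlapped VCaP peaks in 6 of 7 cases. On chromosome 18 all 7 VCaP ERα + E2 peaks formed 1 run of 11.4 kb at chr18:42796529-42807972, where peaks covered 43.1% of the sequence and no other list had a peak.

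The dense clusters of NCI-H660 + E2 lay at chr19:40632161-41398130 and chr21:43080435-44382634, with 33 peaks each. They were looser, with median gaps of 12649 and 31688 bp. The block on 19 held 2 VCaP ERα + E2 peaks and none of VCaP + E2. The block on 21 held 6 VCaP ERα + E2 peaks and 2 of VCaP + E2, and just past its upper end VCaP ERα + E2 had a run of 6 peaks at chr21:44383152-44485240 without an NCI-H660 + E2 peak. Of the next NCI-H660 + E2 runs, those of 17 peaks at chr1:143643338-143786886, 11 at chr19:39368095-39684506, 11 at chr19:63584431-63778782 and 9 at chr19:43112134-43241040, had no peak of VCaP ERα + E2 or VCaP + E2 inside them. Conversely, each of the 10 peaks of the run at chr2:132728391-132751344 and the 9 of the run at chr16:33857816-33871566 was also in VCaP + E2. These tight runs spanned 22954 and 13751 bp. Whether the input library also had signal there was not tested.

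By 1 Mb bins VCaP ERα + E2 occupied 163 and NCI-H660 + E2 832, and 6 bins held 50% of the VCaP ERα + E2 peaks against 152 bins for NCI-H660 + E2. Peaks of both lists fell in 120 bins, which were 73.6% of the VCaP ERα + E2 bins and 14.4% of the NCI-H660 + E2 bins. Most megabases with VCaP ERα + E2 peaks therefore had an NCI-H660 + E2 peak too. When VCaP ERα + E2 peaks were joined across gaps of up to 2 Mb, a setting chosen after the data were seen, 19 stretches of at least 5 peaks held 773 of the 858 peaks (90.1%) in 85.4 Mb, 3.1% of the length spanned, and 354 NCI-H660 + E2 peaks (20.1%) fell within them. Under the same setting 70 NCI-H660 + E2 stretches held 1310 peaks (74.3%) in 420 Mb (15.3%).

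Spacing gave the same picture at the scale of single peaks. The nearest peak of the own list was at a median of 6.63 kb for VCaP ERα + E2 and 134 kb for NCI-H660 + E2. From a VCaP ERα + E2 peak the nearest NCI-H660 + E2 peak was at a median of 110 kb, and from an NCI-H660 + E2 peak the nearest VCaP ERα + E2 peak was at 1860 kb among the 1404 peaks with any on their chromosome. Within 10 kb of a peak of the other list lay 68 VCaP ERα + E2 peaks (7.93%) and 36 NCI-H660 + E2 peaks (2.04%). These distances depend on the number of peaks in the list searched and were not compared with an expected spacing.

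**Figure D3:**
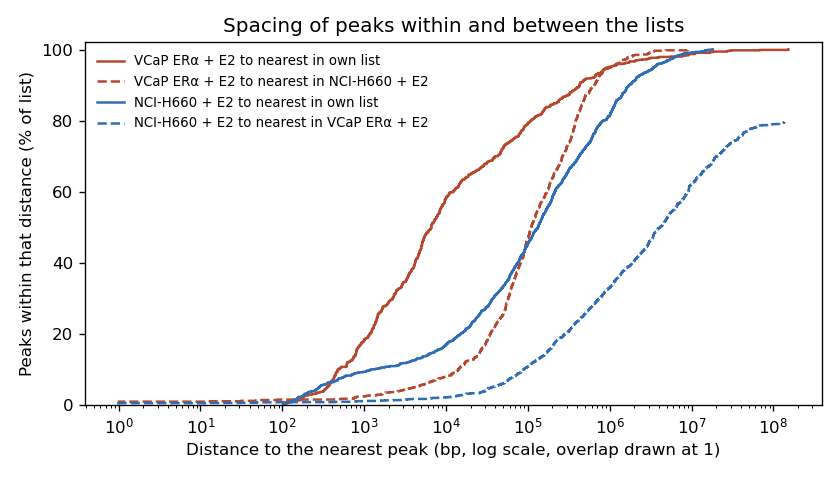
Share of each list (%) with its nearest peak within a given distance (bp, log scale), for VCaP ERα + E2 (red) and NCI-H660 + E2 (blue), to the own list (solid) and to the other list (dashed). The solid red line is at 58.0% by 10 kb and the solid blue line at 16.9%, and the dashed blue line ends below 100% because 7 autosomes have no VCaP ERα + E2 peak.

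Peaks common to both lists were few. Only 7 pairs overlapped by at least 1 bp, which is 0.816% (0.329 to 1.67) of VCaP ERα + E2 and 0.397% (0.16 to 0.816) of NCI-H660 + E2, so the 2622 pooled peaks stood for 2615 sites. Of these pairs 5 were on chromosome 13, inside the VCaP ERα + E2 dense blocks, and 2 were on chromosome 21. The largest overlap was on chromosome 13, where a VCaP ERα + E2 peak at 110165430-110165904 covered the whole NCI-H660 + E2 peak at 110165602-110165903, with 302 bp in common. A second NCI-H660 + E2 peak lay wholly inside its partner, at 110664904-110665065 within 110664608-110665087 (162 bp in common), and that site was also in VCaP + E2. The pair at 111135770-111135985 and 111135712-111135828 had 59 bp in common and the pair at 111701967-111702231 and 111701826-111702010 had 44 bp, both of them also in VCaP + E2. The last pair on 13 was that of the PRECSIT promoter, with 3 bp.

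On chromosome 21 the VCaP ERα + E2 peak at 42809522-42809647 lay wholly inside the NCI-H660 + E2 peak at 42809279-42809727 (126 bp), and those at 45574581-45574926 and 45574513-45574663 had 83 bp in common. Neither was in VCaP + E2, and none of the 7 pairs was in VCaP without E2. Asking for 50% of the shorter peak left 5 pairs, while taking midpoints within 1000 bp raised the count to 18 VCaP ERα + E2 and 16 NCI-H660 + E2 peaks, still a small part of each list.

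The lists also differed in how far they recurred in parental VCaP + E2 cells. NCI-H660 + E2, from an unrelated line, shared 740 of its 1764 peaks (42.0%, 39.6 to 44.3) with VCaP + E2, whereas VCaP ERα + E2, derived from VCaP itself, shared 57 of 858 (6.64%, 5.07 to 8.52). With midpoints within 1000 bp in place of overlap the share of VCaP ERα + E2 was 17.5% and that of NCI-H660 + E2 42.5%. The 57 were nearly all in the blocks, with 54 of 443 in dense clusters (12.2%, 9.29 to 15.6) and 3 of 415 outside them (0.723%, 0.149 to 2.1), and 53 of the 57 were on chromosome 13. For NCI-H660 + E2 the order was the opposite, with 1 of 66 in dense clusters (1.52%, 0.0384 to 8.16) and 739 of 1698 outside (43.5%, 41.1 to 45.9). Of peaks alone in their run, 520 of 967 (53.8%, 50.6 to 57.0) recurred in NCI-H660 + E2 but 1 of 179 (0.559%, 0.0141 to 3.07) in VCaP ERα + E2. VCaP without E2, a list of 89 autosomal peaks, overlapped 15 VCaP ERα + E2 peaks (1.75%) and 10 NCI-H660 + E2 peaks (0.567%). All 15 of VCaP ERα + E2 lay outside dense clusters (15 of 415, 3.61%, 2.04 to 5.89), and 8 of them were on chromosome 22. The run of 7 peaks at chr22:29607902-29668261 gave 6 of these 8, so the 15 were not spread evenly. Outside dense clusters VCaP ERα + E2 thus overlapped more peaks of the short VCaP list than of VCaP + E2. The 10 of NCI-H660 + E2 also lay outside its dense clusters (0.589%). Both lists of the pool are set against the same VCaP + E2 library here, so the shares are not independent of each other.

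Recurrence of NCI-H660 + E2 peaks was far from even over the chromosomes. On 7 autosomes (2, 3, 4, 6, 11, 18 and 20) between 85.1% and 100% of the NCI-H660 + E2 peaks were also in VCaP + E2, and on 6 others (1, 8, 9, 14, 19 and 21) between 21.7% and 28.2%. The first 7 held 221 NCI-H660 + E2 peaks, of which 21 were not in VCaP + E2, while the other 6 held 908, of which 678 were not. The remaining 9 autosomes ranged from 35.5% to 72.1%. All 19 peaks on chromosome 18 and 47 of 50 on chromosome 2 recurred, against 52 of 220 on chromosome 19 and 35 of 147 on chromosome 21. These classes were drawn after the values were seen. On the autosomes where VCaP ERα + E2 had no peak, 236 of 360 NCI-H660 + E2 peaks recurred (65.6%, 60.4 to 70.5), and on the others 504 of 1404 (35.9%, 33.4 to 38.5).

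**Figure D4:**
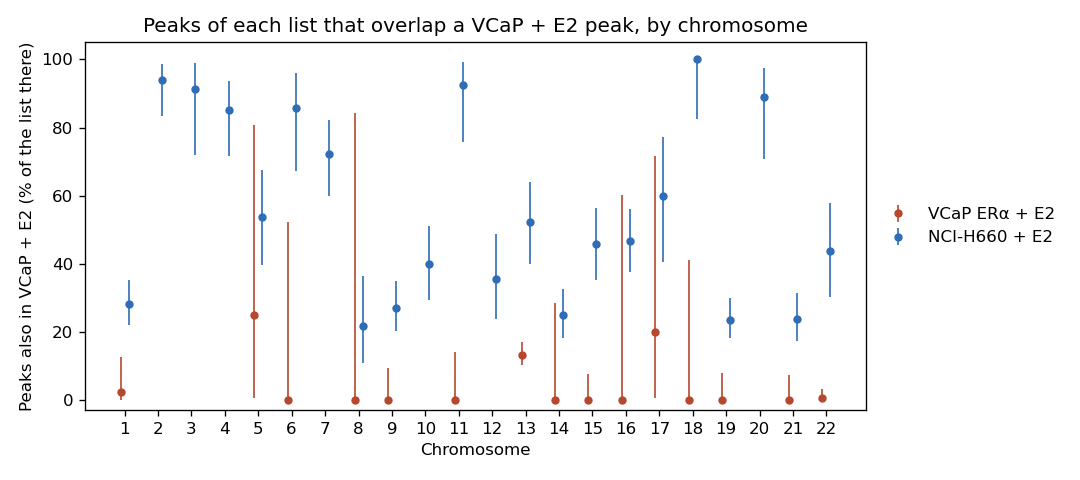
Share of the autosomal peaks on each chromosome (%) that overlap a VCaP + E2 peak by at least 1 bp, for VCaP ERα + E2 (red) and NCI-H660 + E2 (blue), with exact 95% intervals; no red point is drawn where VCaP ERα + E2 has no peak. NCI-H660 + E2 ranges from 21.7% on chromosome 8 to 100% on 18, and VCaP ERα + E2 is at 13.2% on chromosome 13 and 0.568% on 22, with wide intervals where it has few peaks.

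Recurring peaks had higher median widths, which the overlap of at least 1 bp favours by its construction. NCI-H660 + E2 peaks also in VCaP + E2 had a median width of 180 bp against 147 bp for the 1024 that were not, and VCaP ERα + E2 peaks 216 against 165 bp. When all lists, VCaP + E2 included, were cut to their wider 50%, the lists moved in opposite directions, with the shared part of NCI-H660 + E2 at 54.8% and that of VCaP ERα + E2 at 3.73%. The lists hold no peak height or p-value, so width was the only measure of a peak at hand.

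The widest peaks showed the same division. The widest of NCI-H660 + E2 were chr6:58884768-58887207 (2440 bp), chr19:55693636-55695335 (1700 bp), chr1:121185828-121187082 (1255 bp), chr17:60914396-60915620 (1225 bp) and chr19:41396933-41398130 (1198 bp). The first 4 were also in VCaP + E2, and those on chromosomes 6 and 1 were in VCaP without E2 as well. Since the input library was not analysed, signal at these sites apart from ERα binding was not examined. The widest of VCaP ERα + E2 were chr18:42800031-42802235 (2205 bp), chr13:109931144-109932616 (1473 bp), chr18:42805651-42807019 (1369 bp), chr22:19939795-19940605 (811 bp) and chr13:110790472-110791273 (802 bp). None of these 5 was in any other list.

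A further difference lay at chr6:152170609-152461925, the region of ESR1, which encodes ERα (placed from general knowledge of the genome, since no hg18 annotation was used). VCaP + E2 had 9 peaks there, VCaP 7 and NCI-H660 + E2 5, whereas VCaP ERα + E2, labelled as the line that overexpresses the receptor, had 0. Why the region differed was not tested.

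Gene context could be read in hg18 only through the study's own candidate lncRNAs. Of these, 127 transcripts lay on autosomes, 78 of them matched a RefSeq gene by accession, and transcripts with overlapping spans were merged into 98 loci. The study drew these candidates from the peaks described here, so a peak beside each locus is a consequence of the choice and is not independent evidence, and only the division between the lists is given. NCI-H660 + E2 alone had a peak within 5 kb of 79 loci (80.6%) and VCaP ERα + E2 alone of 17 (17.3%). Both lists had a peak at 2 loci, PRECSIT and an unnamed locus on chromosome 13, and no locus lacked one. The 19 loci with a VCaP ERα + E2 peak made up 19.4% of the 98, below that list's 32.7% of peaks and close to its 17.3% of runs. Within 5 kb of a locus lay 27 VCaP ERα + E2 peaks (3.15%, 2.08 to 4.55) and 101 NCI-H660 + E2 peaks (5.73%, 4.69 to 6.91).

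**Figure D5:**
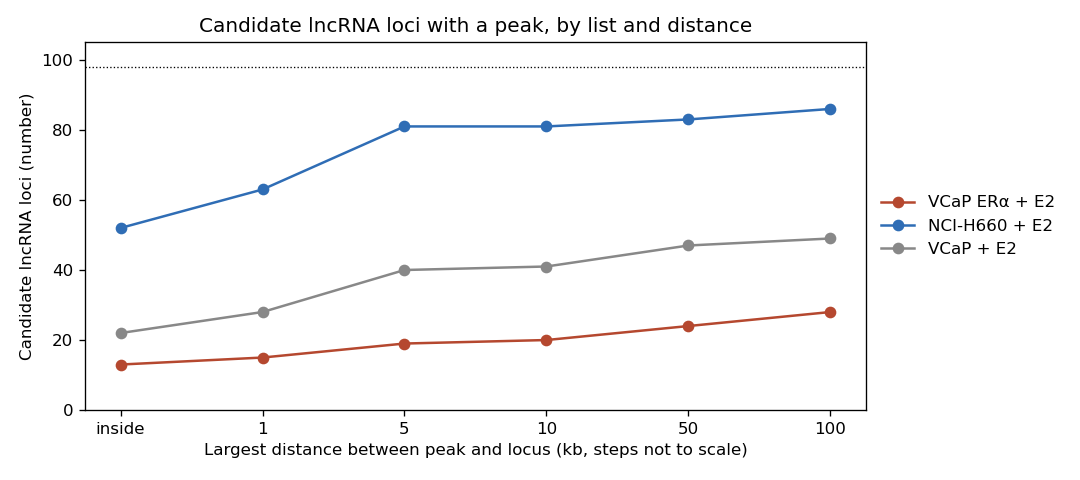
Number of the 98 candidate lncRNA loci (dotted line) with a peak inside the span or within 1 to 100 kb of it, for VCaP ERα + E2 (red), NCI-H660 + E2 (blue) and VCaP + E2 (grey). NCI-H660 + E2 goes from 52 loci inside the span to 86 at 100 kb, and VCaP ERα + E2 from 13 to 28.

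Peaks were few at most loci. The study also took histone marks as evidence of transcription and used expression in tissue to rank lncRNAs, neither of which is considered here. At 82 of the 98 (83.7%, 74.8 to 90.4) the pool had a single peak within 5 kb, and at 58 (59.2%, 48.8 to 69.0) VCaP + E2 had none. Both held at 50 loci (51.0%). A VCaP + E2 peak lay within 5 kb of 36 of the 79 NCI-H660 + E2 loci (45.6%, 34.3 to 57.2), of 2 of the 17 VCaP ERα + E2 loci (11.8%, 1.46 to 36.4) and of both loci with peaks of the 2 lists. The nearest peaks had a median width of 158 bp for VCaP ERα + E2 loci, against 165 bp for NCI-H660 + E2 loci.

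The loci did not simply follow the peak numbers by chromosome. Chromosome 13, with 400 of the 858 VCaP ERα + E2 peaks in 7 runs, gave 3 of that list's 19 loci. Chromosome 22 gave VCaP ERα + E2 6 of its 19 loci, among them DGCR5, a transcript of the DiGeorge syndrome region, whose span held the peak at chr22:17341283-17341399. LINC02891 and LINC00896 were reached by the same peak, chr22:18571403-18571544, inside the first and 2311 bp from the second. Chromosomes 13, 19 and 21 gave 3 each. On 21 they were URB1-AS1, LINC00111 and LINC00163, each with 1 VCaP ERα + E2 peak inside the span, and the 579 bp peak at LINC00111 was the widest of the nearest peaks in that list. On 19 PSG8-AS1, antisense to a pregnancy-specific glycoprotein gene, held a peak in its span and CYP4F24P, a cytochrome P450 pseudogene, had one at 510 bp. CPEB1-AS1 on 15 and LINC03062 on 9 held 1 each. None of these named loci had a VCaP + E2 peak within 5 kb. PRECSIT, with 5 peaks from VCaP ERα + E2 but 1 from NCI-H660 + E2, lay in the large block on 13 and had 1 VCaP + E2 peak.

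NCI-H660 + E2 reached loci on 20 autosomes, those without VCaP ERα + E2 peaks included. Inside the spans of JUN-DT, the divergent transcript of the AP-1 gene JUN, and of RBM15-AS1 on chromosome 1 stood 1 peak each, of 126 and 103 bp, with no VCaP + E2 peak within 5 kb. The same held on chromosome 10 at DNAJC9-AS1, ZMIZ1-AS1, the antisense partner of an androgen receptor coactivator gene, and TMEM254-AS1. MZF1-AS1 on chromosome 19 had 8 peaks within 5 kb, the most at any locus, in the run of 11 noted above, and again none of VCaP + E2. Loci where the NCI-H660 + E2 peak was beside one of VCaP + E2 included HAR1A and HAR1B, RNAs of a human accelerated region on chromosome 20, LINC00673 on 17, LINC01094 on 4, and MIR4500HG on 13 with 2 peaks of each list. CBR3-AS1 on 21, a transcript described in prostate cancer as PlncRNA-1, had an NCI-H660 + E2 peak of 133 bp in its span and no VCaP + E2 peak within 5 kb. The largest distance within the limit was 4965 bp, at GAS6-AS1.

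Beside NEAT1, the scaffold RNA of paraspeckles, only VCaP ERα + E2 of the pooled lists had a peak within 5 kb. The nearest VCaP ERα + E2 peak, chr11:64942832-64942935 (104 bp), ended 3910 bp before the listed span, and a further one of 113 bp at chr11:64941249-64941361 lay 5484 bp before it. No peak of any list was inside the span. The nearest NCI-H660 + E2 peak, chr11:65040370-65040688 (319 bp), lay 89791 bp past the other end and overlapped the VCaP + E2 peak at 65040330-65040773, and VCaP ERα + E2 had its next peak at 65050528-65050633, 99949 bp past that end. Within the 5 kb used here, which was set for this comparison, lay 1 VCaP ERα + E2 peak, and the peak at 5484 bp lay just outside it. No other list had a peak at either position.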

How the data were processed

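The authors deposited 1 peak list per ChIP–seq library as 3 columns without scores, and the deposited values are start and end positions in bp (no other unit). The submitters' processing notes name build hg18 and CASAVA 1.8, and the study names ChIPSeeqer as the peak caller. Aligner, caller version, threshold, use of input and read depth were not given in the sources used here, so no depth limit could be set. Starts were counted from 0 in the lists and are printed from 1.

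Samples were grouped by the labels (1 library per group, 4 lists), and the 22 autosomes were kept. Peaks of a list with gaps up to 100 kb were joined into runs, runs of at least 20 peaks were called dense clusters, and peaks overlapping by at least 1 bp were called common. Even shares used the length between the outermost peaks of all lists on a chromosome, or RefSeq GRCh38.p14 gene numbers. Candidate lncRNA spans in hg18 came from a supplementary table of the study, used for positions only, and were merged where they overlapped; a locus had a peak within 5 kb. Promoter windows were placed from the listed start and the RefSeq strand. Shares carry exact (Clopper-Pearson) 95% intervals, and a count of 0 was given the limit of 3 counts. No test between lists was made. Python 3.11.15, numpy 2.4.6, scipy 1.17.1 and matplotlib 3.10.9 were used, and runs and overlaps were tested on simulated lists, where 20 of 20 draws were recovered.

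Named items were the 5 widest peaks of each list, all common pairs, up to 10 clusters with the most peaks, the 15 lncRNA loci nearest to each list, and NEAT1. Runs under 20 peaks, the ESR1 region and the choice among 52 NCI-H660 + E2 loci tied at 0 bp came after the values were seen, as did LINC00896, the loci with peaks of both lines, MZF1-AS1 and GAS6-AS1. The members and lists were chosen with earlier results of these data known. Alternatives changed the gap, the cluster size, the overlap, the distance and the chromosomes. The input library, the X and Y chromosomes (beyond their counts) and the share of peaks between genes were not analysed here.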

Additional observations from a re-analysis of the deposited data

How the results depend on the processing

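Of 57 values recomputed under other settings for 13 results, 25 stayed within the interval of the main value (or, for counts, within 1.5 times) and 32 moved. The VCaP ERα + E2 share of the pool, 32.7% as peaks, was 17.3% as runs, 21.3% without chromosome 13, 48.0% with X and Y and 19.6% without dense clusters (the last chosen after the data were seen). Against gene number the excess was 17.2 times on chromosome 13 and 8.73 on 22 for VCaP ERα + E2 and 2.62 on 19 for NCI-H660 + E2, and as runs it was 0.799 on 13, 19.6 on 22, 3.32 on 19 and 3.22 on 21. The VCaP ERα + E2 share in dense clusters was 59.2% with gaps of 200 kb, 55.2% with 10 peaks and 61.2% with 5, and that of NCI-H660 + E2 was 0.0% with gaps of 50 kb, 6.86% with 200 kb, 7.82% with 10 peaks, 14.5% with 5 and 6.52% in runs of the pooled peaks. Common peaks numbered 18 in VCaP ERα + E2 and 16 in NCI-H660 + E2 with midpoints within 1000 bp, 68 and 36 within 10 kb, 12 in each with peaks set to 500 bp and 2 in each among the wider 50%. The share also in VCaP + E2 moved for VCaP ERα + E2 to 17.5% with midpoints within 1000 bp, 3.73% in the wider 50% and 0.723% without dense clusters, and for NCI-H660 + E2 to 54.8% in the wider 50%. Loci with an NCI-H660 + E2 peak inside the span were 52. In each of these alternatives NCI-H660 + E2 gave more of the pool than VCaP ERα + E2, had less of its list in dense clusters and shared more with VCaP + E2. The cause of the moves was not tested beyond what each setting removes. No paired analysis was possible because every group consists of 1 library, and no replicate could be left out. Without read counts or scores, a peak missing from a list cannot be told from one under the caller's threshold.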
